A study of Mus musculus with 2 samples.

Results

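Cxcl9, Cxcl10 and Cxcl16, which encode chemokines, and Cxcr3 and Cxcr6, which encode the receptors of those chemokines, were followed across the cells of MC38 tumours. The 5 genes were chosen by name, and all 5 were found among the 32285 features of the count matrices. MC38 is a mouse colon adenocarcinoma cell line that is grown as a tumour in mice. The study compared dissociated tumours of 2 groups by droplet single-cell RNA sequencing, with 1 library per group: MC38 tumours labelled Mbtps1 WT, called control here, and MC38 tumours labelled Mbtps1 KD, called knockdown here, which the series text calls a knockout. Mbtps1 encodes site-1 protease, a Golgi enzyme that activates membrane-bound transcription factors, and the series text asks how its loss relates to the cells around the tumour. The labels do not give the host strain, the age of the mice, how many tumours went into a library, how the knockdown was made or how many clones it rests on. With 1 library per group no difference below has a replicate check, no statistical test was made, and every interval covers counting error only.

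Chemokines are small secreted proteins that guide cells along their concentration gradient, and their receptors signal through inhibitory G proteins. CXCL9 and CXCL10 are made by many cell types after interferon gamma, CXCL10 also after type I interferon and NF-kappaB signals, and both bind CXCR3 on activated T and NK cells. CXCL16 is made as a membrane-anchored protein that ADAM10 and ADAM17 can shed, and it binds CXCR6, which marks tissue-resident and effector T cells. In tumours, CXCL9 and CXCL10 from macrophages and dendritic cells are known for drawing in CXCR3-positive T cells, and CXCL16 for holding CXCR6-positive T cells close to dendritic cells.

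Cxcl9 (ENSMUSG00000029417) and Cxcl10 (ENSMUSG00000034855) lie on the minus strand of chromosome 5 in GENCODE vM21 (GRCm38), at chr5:92321347-92328079 and chr5:92346638-92348889, 18558 bp apart. Cxcl16 (ENSMUSG00000018920) lies at chr11:70453983-70459984 on the minus strand, Cxcr3 (ENSMUSG00000050232) at chrX:101731535-101734269 on the minus strand, and Cxcr6 (ENSMUSG00000048521) at chr9:123806475-123811760 on the plus strand. All 5 are annotated as protein coding. Genes were matched to this annotation by identifier, because no build of the matrices is known from their headers or labels.

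The promoters of Cxcl9 and Cxcl10 are shown because the ratios of these nearby genes between the libraries differed within the same tumour clusters. The windows are from RefSeq (GRCm38.p6) and run 5′ to 3′ along the gene, from 250 bases before to 50 bases after its start, at chr5:92328030-92328329 and chr5:92348840-92349139, both on the minus strand. Capitals mark matches to the core of the interferon-stimulated response element (GAAANNGAA) and to the core of the NF-kappaB site (GGANNNNCC), searched on both strands.
Cxcl9 promoter: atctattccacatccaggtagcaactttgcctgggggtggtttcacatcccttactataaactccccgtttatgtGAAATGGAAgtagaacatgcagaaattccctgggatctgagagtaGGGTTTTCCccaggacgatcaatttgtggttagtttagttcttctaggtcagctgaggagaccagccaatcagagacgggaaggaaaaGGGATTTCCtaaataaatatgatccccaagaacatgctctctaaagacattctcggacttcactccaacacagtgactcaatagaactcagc
Cxcl10 promoter: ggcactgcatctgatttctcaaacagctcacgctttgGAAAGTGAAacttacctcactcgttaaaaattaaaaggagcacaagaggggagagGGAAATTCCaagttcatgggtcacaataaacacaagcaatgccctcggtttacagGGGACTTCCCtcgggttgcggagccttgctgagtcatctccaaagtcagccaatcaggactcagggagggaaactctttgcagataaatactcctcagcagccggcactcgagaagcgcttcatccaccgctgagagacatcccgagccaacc
Each window held 1 match to the first core, GAAATGGAA in Cxcl9 starting at base -175 and GAAAGTGAA in Cxcl10 at base -213, counted from the gene start. Such a match was present in 8.56% of the 32851 RefSeq promoter windows. The NF-kappaB core matched at bases -130 and -42 in Cxcl9, and in Cxcl10 at base -158 and at the overlapping bases -103 and -102, while 48.4% of all windows held it. The interferon gamma-activated site TTCNNNGAA, present in 8.3% of windows, had no match in either. The windows of Cxcr3 and Cxcr6 held 0 matches to the 3 motifs, and Cxcl16 was not among the 4 genes matched in the table.

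Kept cells numbered 11069 in control and 15703 in knockdown, with a median of 8188 and 5020 UMIs (unique molecular identifiers, which count captured RNA molecules), and 47 barcodes were kept in both libraries. Cells were clustered and named from marker genes as X-like classes. Tumour-like cells numbered 4501 and 7567, macrophage/monocyte-like cells 4719 and 4964, T-like cells 413 and 1295, and NK-like cells 255 and 446. Of the 15 tumour markers, 10 in control and 11 in knockdown were higher in the tumour-like cells than in all others, with a summed level of 1705 and 1557 CPM (UMIs per 1000000 UMIs of the class) against 181 and 200 CPM. Mbtps1 had 28.9 CPM in the control and 12.3 CPM in the knockdown tumour-like cells, and their ratio was 0.426 (95% interval 0.399 to 0.456), in the direction of the labels. Unnamed cells made up 3.22% and 3.61%. Levels are compared between cells and libraries rather than between genes, since the capture of different transcripts at their 3′ end may differ.

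Over all kept cells the libraries had nearly the same level of Cxcl9 and Cxcl10, less Cxcl16 in knockdown and more Cxcr6. Cxcl9 had 531 CPM in control and 524 CPM in knockdown over all kept cells, a ratio of 0.986 (0.976 to 0.997). Cxcl10 had 711 and 757 CPM, for a ratio of 1.065 (1.056 to 1.074), and Cxcl16 had 150.5 and 112 CPM, for a ratio of 0.746 (0.731 to 0.762). Of the receptors, Cxcr3 had 167 UMIs (1.16 CPM) in control and 155 UMIs (1.18 CPM) in knockdown. Cxcr6 had 544 UMIs (3.76 CPM) and 1166 UMIs (8.86 CPM), a ratio of 2.35 (2.12 to 2.61), while the T-like share of kept cells was 3.73% and 8.25%. In a droplet sample, fewer cells of a type and less RNA per cell both lower such a whole-library level, so the values below are given within classes.

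Macrophage/monocyte-like cells held most Cxcl9 and nearly all Cxcl16, and tumour-like cells held most Cxcl10. The macrophage/monocyte-like share of Cxcl9 UMIs was 59.3% in control and 74.4% in knockdown, and the tumour-like share was 28.5% and 15.1%. For Cxcl10 the tumour-like share was 77.4% and 81.6% and the macrophage/monocyte-like share 20.3% and 16.2%. For Cxcl16 the macrophage/monocyte-like share was 92.9% and 91.1%. T-like cells held 77.0% and 80.6% of Cxcr6, and 34.7% and 43.2% of the few Cxcr3 UMIs. These shares also follow the number and depth of the cells, since tumour-like cells had a median of 21551 and 13053 UMIs.

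**Figure D1:**
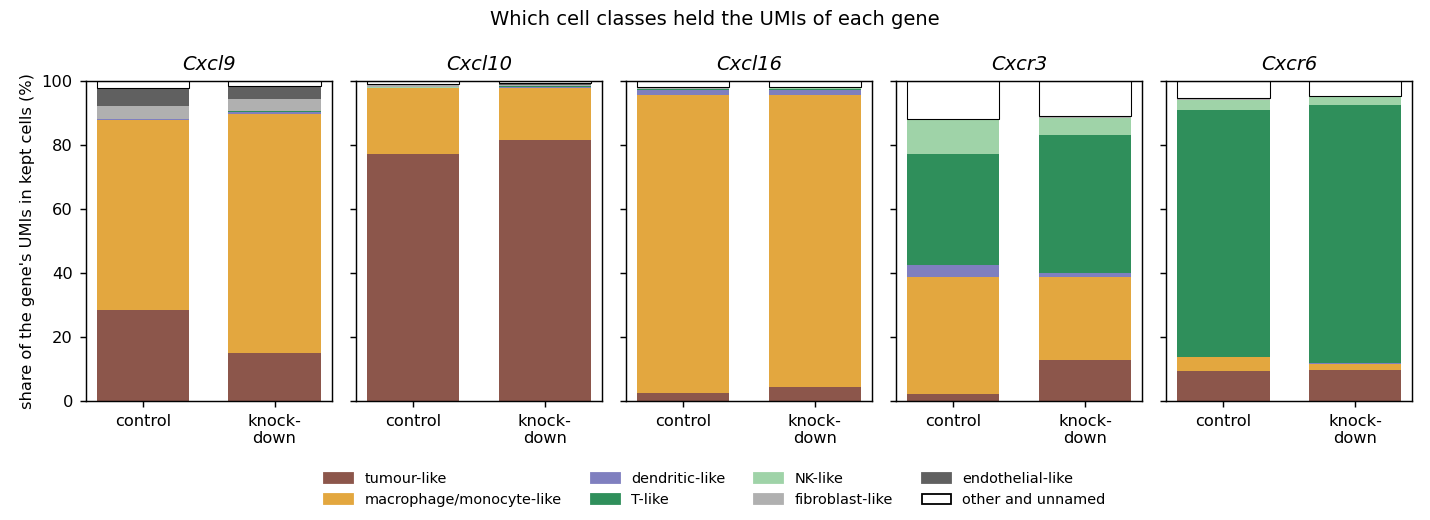
Share of each gene's UMIs in kept cells (%, vertical axis) held by each cell class, in the control and knockdown libraries. Macrophage/monocyte-like cells take 59.3% and 74.4% of Cxcl9, tumour-like cells 77.4% and 81.6% of Cxcl10, and T-like cells 77.0% and 80.6% of Cxcr6.

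Cxcl9 was higher in the macrophage/monocyte-like cells of the knockdown library. It had 45511 UMIs in control and 51310 UMIs in knockdown, which is 1459 and 2448 CPM, for a ratio of 1.68 (1.66 to 1.70). Genes were set against a fold threshold where they had at least 50 UMIs over both libraries and 20 CPM in 1, and are called tested in that sense only. Of the 3 genes of the axis tested in this class, Cxcl9 alone was at least 1.5-fold higher with an interval that leaves out 1, and none was as much lower. Over all 5971 genes tested in the class, 1.31% were higher and 0.335% lower by that rule. With every cell thinned to 500 UMIs, 30.4% (29.1 to 31.8) of control cells and 42.8% (41.4 to 44.2) of knockdown cells held a Cxcl9 UMI, and 9.49% and 17.6% held at least 3. Unthinned shares were 60.3% and 67.9%, at median depths of 6170 and 3785 UMIs. Free RNA was estimated at 8.60% and 16.3% of the UMIs of this class, and would give 46.4 and 87.0 CPM of Cxcl9. Within bins of cell depth the ratio was 2.09 (1.78 to 2.46) at 500 to 2000 UMIs, 1.83 (1.78 to 1.87) at 2000 to 5000, 1.67 (1.64 to 1.70) at 5000 to 10000 and 1.28 (1.22 to 1.34) at 10000 to 20000, so it was above 1 in each and smaller in deeper cells.

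The difference was present in each of the 11 subclusters of this class, whose levels spanned a wide range. Subcluster 2, led by Cd300e and Gbp2b, had the highest Cxcl9 at 2739 CPM in control and 4101 CPM in knockdown. Subcluster 4, led by Ly6i and Ifitm1, had 2527 and 4014 CPM, and subcluster 3, led by Ccl8 and Apoe, had 2070 and 3520 CPM. The least was in subcluster 12, led by Retnla and Cd209f, genes of resident-type macrophages, with 121 and 191 CPM, and in subcluster 8, led by Mmp12 and Cd36, with 159 and 247 CPM. All 11 ratios had intervals above 1, from 1.26 (1.06 to 1.51) in the monocyte-like subcluster 10 to 2.20 (2.07 to 2.34) in subcluster 7, which was led by the inflammatory genes Cxcl2 and Il1a and had 628 and 1381 CPM. The lowest and the highest subcluster thus differed far more than the libraries did within any subcluster.

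**Figure D2:**
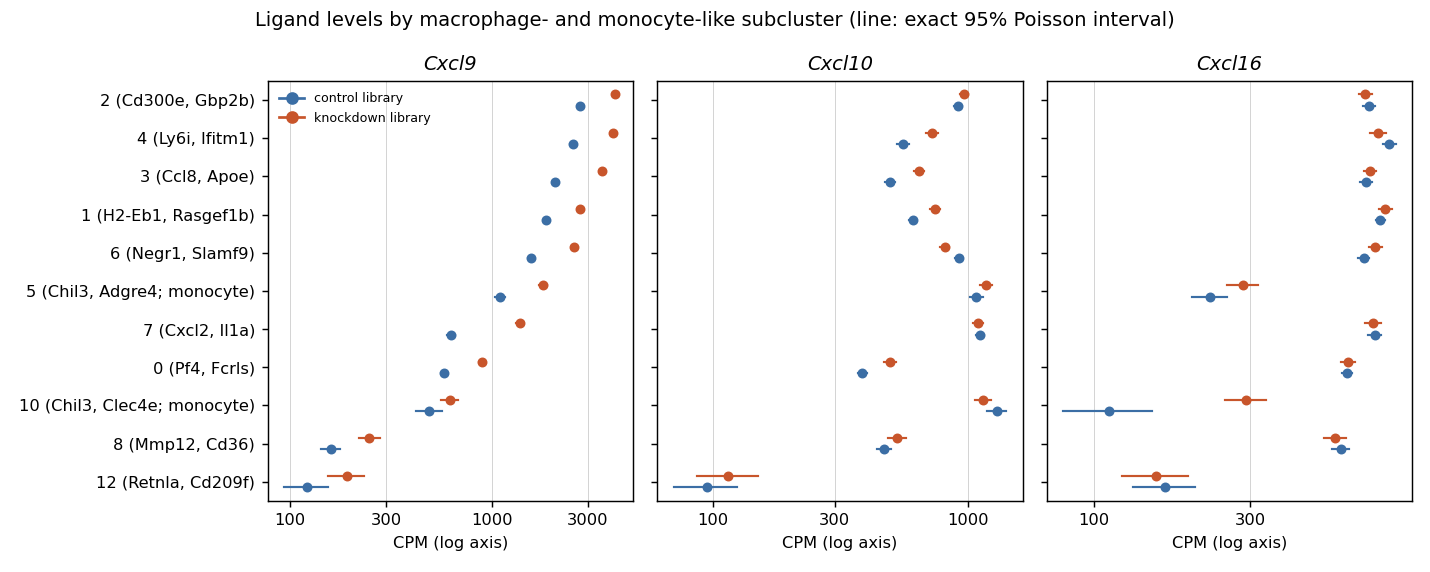
Level of Cxcl9, Cxcl10 and Cxcl16 (CPM, log axis) in the 11 macrophage- and monocyte-like subclusters, ordered by Cxcl9, in the control and knockdown libraries. Points are CPM of the summed UMIs and lines exact 95% Poisson intervals, and in all 11 rows Cxcl9 is higher in the knockdown library, while the ratio of Cxcl16 has an interval that holds 1 in 7 of 11.

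In tumour-like cells Cxcl9 differed in the other direction. It had 21853 UMIs in control and 10444 UMIs in knockdown, which is 209.6 and 102 CPM, for a ratio of 0.487 (0.476 to 0.499). Of the 2 genes of the axis tested in this class, Cxcl9 was lower by at least 1.5-fold and Cxcl10 differed less, whereas 2.28% of all 6348 genes tested were lower and 2.6% higher. Cxcl9 was not spread evenly: the top 10% of cells held 82.2% of its UMIs in control and 80.0% in knockdown. The 6 tumour-like clusters differed both in level and in direction. Cluster 6, led by Mfap4 and H19, had 430 CPM in control and 372 CPM in knockdown, a ratio of 0.866 (0.834 to 0.898), and cluster 9, led by Robo2 and Pcdh9, had 367 and 233 CPM, for a ratio of 0.636 (0.599 to 0.674). Cluster 10, led by Cxcl1 and the early-response gene Ccn1, had 168 and 73.1 CPM. Clusters 1, 2 and 4 had 36.1, 35.3 and 45.9 CPM in control and 62.6, 61.5 and 47.2 CPM in knockdown, with intervals above 1 in clusters 1 and 2. Cells of cluster 2 were much shallower in knockdown, with a median of 4493 UMIs against 16812 UMIs in control. Cxcl16, which was near the free RNA level in tumour-like cells, had 5.5 and 11.2 CPM in cluster 2, a ratio of 2.04 (1.53 to 2.74). The part of depth and free RNA in these cluster levels was not tested.

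The size of the tumour-like difference depended on which cells were weighed. Clusters 6 and 9 together gave 1091 and 1044 of the control tumour-like cells, but 804 and 381 of the knockdown ones, whose larger clusters were 1 (2211 cells) and 2 (2011 cells). With the clusters at the same weight in both libraries the Cxcl9 ratio was 0.863, which is less than a 1.5-fold difference. By depth, the ratio was 1.81 (1.099 to 3.21) in tumour-like cells of 500 to 2000 UMIs, 1.26 (1.01 to 1.59) at 2000 to 5000, 0.594 (0.544 to 0.649) at 5000 to 10000, 0.260 (0.251 to 0.270) at 10000 to 20000 and 0.487 (0.468 to 0.506) at 20000 or more. The first bin held 82 control and 980 knockdown cells. Genes that mark fibroblasts and other stroma, such as Aspn, Ogn and Dcn, were among the 10 leading genes of cluster 6, and Aspn and Ogn of cluster 9, and both clusters had Xist, the RNA of the inactive X chromosome, at 3.76 and 4.73 CPM, where the macrophage and monocyte subclusters had 353 CPM or more. The 18 macrophage/monocyte markers summed to 599 and 676 CPM in tumour-like cells, against 41734 and 37339 CPM in macrophage/monocyte-like cells. From 8 macrophage genes in tumour-like cells and in empty droplets, free RNA would give 14.0 and 21.1 CPM of Cxcl9 there, under the levels of the class. No such estimate was made for single clusters, and clusters 1, 2 and 4 had lower levels than the class.

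Cxcl10 had nearly the same level in both libraries when all tumour-like cells were summed, but a higher one in knockdown within most clusters. The class had 79503 UMIs in control and 81277 UMIs in knockdown, which is 763 and 795 CPM, for a ratio of 1.04 (1.03 to 1.05). The ratio had an interval above 1 in 5 of 6 clusters. Cluster 6, which has Cxcl10 itself and the interferon-induced Ifit1 among its 10 leading genes, had 1581 and 1999 CPM, for a ratio of 1.26 (1.24 to 1.29). Cluster 1 had 448 and 721 CPM, for a ratio of 1.61 (1.57 to 1.65), cluster 10 had 953 and 1254 CPM, cluster 2 had 268 and 404 CPM, and cluster 4 had 194 and 291 CPM. Cluster 9 was the exception, at 806 and 786 CPM with a ratio of 0.976 (0.944 to 1.01). With clusters at the same weight the ratio was 1.32, whereas it was 0.960 with each cell at equal weight and 0.987 with cells thinned to 500 UMIs, so its direction rested on the weighing. By depth it was 1.35 (0.974 to 1.93) at 500 to 2000 UMIs, 1.895 (1.66 to 2.17) at 2000 to 5000, 0.965 (0.918 to 1.01) at 5000 to 10000, 0.7945 (0.781 to 0.808) at 10000 to 20000 and 1.152 (1.137 to 1.168) at 20000 or more. Thinned to 500 UMIs, 18.9% (17.7 to 20.04) of control and 22.3% (21.3 to 23.2) of knockdown tumour-like cells held a Cxcl10 UMI, and 4.42% and 3.78% held at least 3.

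**Figure D3:**
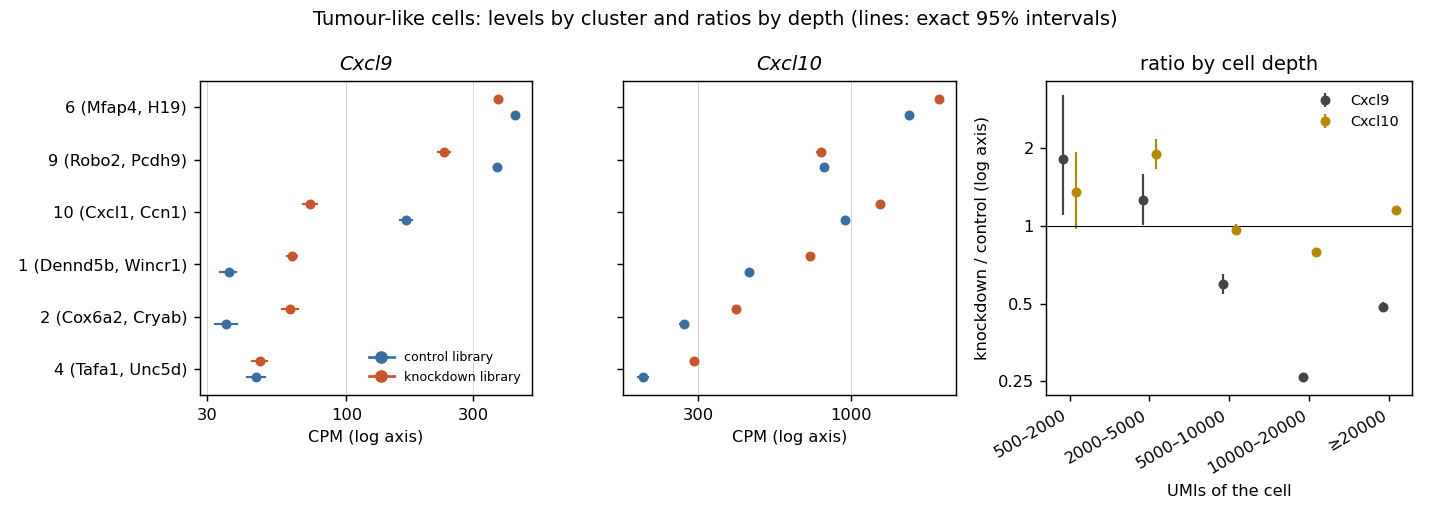
Left and middle, Cxcl9 and Cxcl10 levels (CPM, log axis) in the 6 tumour-like clusters of the control and knockdown libraries, with exact 95% Poisson intervals. Right, the ratio of knockdown to control (log axis) over all tumour-like cells in bins of UMIs per cell, where Cxcl9 runs from 1.81 in the shallowest cells to 0.260 at 10000 to 20000 UMIs.

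In macrophage/monocyte-like cells Cxcl10 was modestly higher in knockdown, at 669.9 CPM in control and 771 CPM in knockdown, a ratio of 1.15 (1.13 to 1.17). Thinned shares were 16.8% (15.7 to 17.9) and 20.3% (19.2 to 21.5). Its subclusters ranked otherwise than for Cxcl9. The monocyte-like subclusters 10 and 5, led by Chil3, had 1295 and 1079 CPM in control and 1148 and 1174 CPM in knockdown, and the Cxcl2 and Il1a subcluster 7 had 1115 and 1097 CPM. Of the 11 ratios, 7 had intervals above 1 and 2 below 1, in subclusters 6 and 10, and the highest was 1.298 (1.201 to 1.403) in subcluster 4. Monocyte-like cells as a whole had 1134 and 1165 CPM of Cxcl10 and 944 and 1365 CPM of Cxcl9.

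Cells with a Cxcl9 UMI held a Cxcl10 UMI more often than cells without one, in both libraries. Among thinned macrophage/monocyte-like cells with a Cxcl9 UMI, 23.1% in control and 26.3% in knockdown also held a Cxcl10 UMI, against 14.0% and 15.9% of those without. Cells with both were 332 of 4719 in control and 558 of 4964 in knockdown, or 7.04% and 11.2%. In tumour-like cells the same shares were 47.8% and 39.9% with a Cxcl9 UMI against 16.4% and 21.2% without. The number of Cxcl9 UMIs per Cxcl10 UMI was 2.18 in control and 3.18 in knockdown macrophage/monocyte-like cells, 0.275 and 0.129 in tumour-like cells, and 8.45 and 5.435 in endothelial-like cells.

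**Figure D4:**
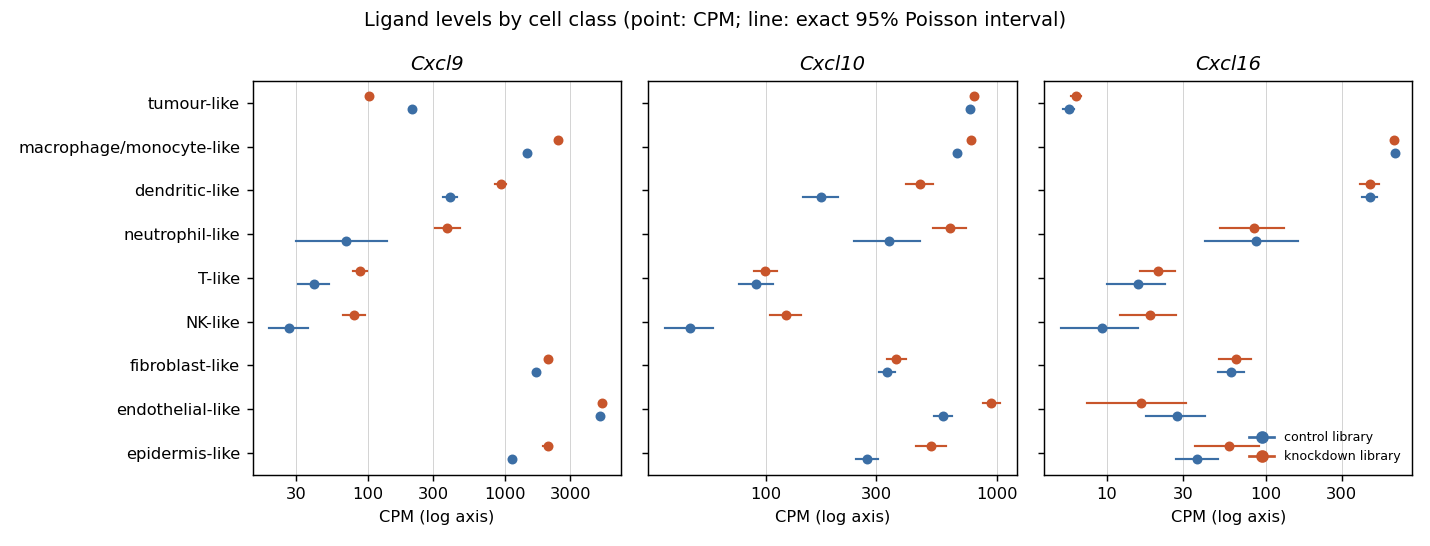
Level of each ligand (CPM, log axis) in 9 cell classes of the control and knockdown libraries. Points are CPM of the summed UMIs and lines exact 95% Poisson intervals, and endothelial-like cells have the highest Cxcl9 (4948 and 5139 CPM), while Cxcl16 is highest in macrophage/monocyte-like cells (648 and 643 CPM).

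Cells of the vessels and stroma had a high summed level of Cxcl9 but were few. The 108 control and 104 knockdown endothelial-like cells had 4948 and 5139 CPM, for a ratio of 1.04 (0.990 to 1.09), and held 5.37% and 4.08% of all Cxcl9 UMIs. Their Cxcl10 was higher in knockdown, at 586 and 945.5 CPM, for a ratio of 1.61 (1.42 to 1.83). Fibroblast-like cells, 228 and 222, had 1692 and 2077 CPM of Cxcl9, a ratio of 1.23 (1.16 to 1.30), and 335 and 367 CPM of Cxcl10, with an interval that holds 1. The top 10% of fibroblast-like cells held 73.9% and 70.9% of their Cxcl9 UMIs, and 21.5% and 27.0% of thinned cells held one. Epidermis-like cells, led by the keratins Krt5 and Krt17, had 1126 and 2057 CPM of Cxcl9, but the top 10% of the 216 control cells held 93.8% of those UMIs. The 8 macrophage genes summed to 307 and 329 CPM in endothelial-like and 339 and 283 CPM in fibroblast-like cells, against 4489 and 2933 CPM in empty droplets.

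Among dendritic-like cells, the antigen-presenting cells that prime T cells, Cxcl9 had 398 CPM in the 166 control cells and 934 CPM in the 180 knockdown cells, a ratio of 2.35 (2.02 to 2.72). Cxcl10 had 172.5 and 464 CPM, for a ratio of 2.69 (2.16 to 3.36). These rested on few molecules, 307 and 453 UMIs of Cxcl9 and 133 and 225 UMIs of Cxcl10, and they changed with which cells were counted: with doublets kept the Cxcl9 ratio was 0.777, and with another seed 1.63. The cDC2-like cells, the conventional dendritic cells marked by Cd209a, had 509.9 and 1205 CPM of Cxcl9, whereas the mature dendritic-like cells, marked by Ccr7 and Ccl22, had 308 and 264 CPM, with an interval of the ratio that holds 1. Neutrophil-like cells had 8 and 90 UMIs of Cxcl9, which is 69.6 and 381 CPM, for a ratio of 5.48 (2.67 to 13.1) over 68 and 203 cells. Free RNA, estimated at 21.0% and 36.0% of neutrophil-like UMIs, would give 113 and 192 CPM of Cxcl9 there, above the control level and below the knockdown one. That estimate is rough, since of its 9 genes of other cell types 2 were detected in control and 4 in knockdown neutrophil-like cells. Their Cxcl10, at 339 and 627 CPM, had a ratio of 1.85 (1.29 to 2.70), which was 0.923 among cells of at least 2000 UMIs.

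Most Cxcl16 was in macrophage/monocyte-like cells, and the ratio of its summed level there had an interval that holds 1. Macrophage/monocyte-like cells had 20220 UMIs in control and 13475 UMIs in knockdown, which is 648 and 643 CPM, for a ratio of 0.992 (0.970 to 1.01). Under 11 alternatives it lay between 0.9025 and 1.073, below 1 in 8 and above 1 in 3. By depth the ratio was 0.7475 (0.608 to 0.926) at 500 to 2000 UMIs, 1.006 (0.963 to 1.051) at 2000 to 5000, 1.046 (1.015 to 1.078) at 5000 to 10000 and 1.047 (0.973 to 1.126) at 10000 to 20000, so it was below 1 in the shallowest cells and slightly above 1 in deeper ones. Of the 11 subclusters, 3 had intervals above 1, the monocyte-like subclusters 10 and 5 and subcluster 6, and subcluster 4 had one below 1 at 0.923 (0.860 to 0.991). Thinned to 500 UMIs, 26.6% (25.3 to 27.9) and 24.4% (23.2 to 25.6) of cells held a UMI. It was also more even than Cxcl9, with the top 10% of cells holding 27.5% and 32.3% of its UMIs against 55.7% and 47.7% for Cxcl9. Monocyte-like cells had less of it, 197 and 287 CPM, than macrophage-like cells, 671 and 676 CPM, and in monocyte-like cells it was higher in knockdown, a ratio of 1.46 (1.26 to 1.69). The resident-type subcluster 12 had 165 and 155 CPM. The highest level of any named subset was in mature dendritic-like cells, at 961 CPM (212 UMIs in 56 cells) and 738 CPM (84 UMIs in 40 cells), a ratio of 0.768 (0.589 to 0.994). Tumour-like cells had 5.75 and 6.40 CPM, where free RNA would give 4.79 and 5.29 CPM, and 0.355% and 0.714% of them held a Cxcl16 UMI after thinning. Adam10 and Adam17, the sheddases of the protein, are counted in the list of partners below.

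Ligand UMIs in lymphocytes were near the level that free RNA gives. T-like cells had 40.5 and 87.7 CPM of Cxcl9, and free RNA, scaled by 11 macrophage and tumour genes, would give 39.4 and 72.5 CPM. NK-like cells had 26.7 and 79.4 CPM of Cxcl9, against 26.6 and 77.9 CPM from free RNA, and 46.8 and 122 CPM of Cxcl10, against 32.7 and 97.1 CPM. Cxcl16 in T-like cells was 15.7 and 21.0 CPM, against 13.5 and 18.2 CPM. An exception was Cxcl10 in control T-like cells, at 90.7 CPM against 48.5 CPM, of which the top 10% of cells held 84.9%, while knockdown T-like cells had 99.3 CPM against 90.5 CPM. Cxcl9 in T-like cells and Cxcl9 and Cxcl10 in NK-like cells thus count among the higher genes of those classes, beside backgrounds of 4.98% of 6350 genes in T-like and 6.93% of 6130 genes in NK-like cells, and nothing is read from them about lymphocytes.

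Cxcr6 was a T cell transcript, and the ratio of its level in T-like cells had an interval that holds 1. T-like cells had 419 UMIs in control and 940 UMIs in knockdown, which is 273.5 and 303 CPM, for a ratio of 1.11 (0.987 to 1.25). The whole-library ratio of 2.35 above thus stood beside 413 control and 1295 knockdown T-like cells. CD8 T-like cells, the cytotoxic lineage, had 303 and 321 CPM, for a ratio of 1.06 (0.932 to 1.21), and 15.8% (11.5 to 20.95) and 17.1% (14.8 to 19.7) of them held a UMI after thinning, against 0.0212% and 0.0604% of macrophage/monocyte-like and 0% and 0.119% of tumour-like cells. Unthinned, 63.6% and 49.5% of CD8 T-like cells held one, at median depths of 3724 and 2309 UMIs. Unthinned shares were 0.445% and 0.403% in macrophage/monocyte-like cells and 1.02% and 1.31% in the deeper tumour-like cells, 46 and 99 cells. The thinned share of 0 of 4501 in control tumour-like cells is therefore a value at 500 UMIs per cell, with an exact upper limit of 0.0819% at that depth only.

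Within the T-like cells the level of Cxcr6 varied by subset. Gamma-delta T-like cells, marked by Trdc and the interleukin gene Il17a, had the highest, 726 CPM (39 UMIs in 24 cells) and 546 CPM (86 UMIs in 104 cells). The CD8 subcluster 0, led by Cd8b1 and Cd8a with Cxcr6 itself among its 10 leading genes, had 435 and 433.5 CPM. Regulatory T-like cells, marked by Foxp3, had 119 and 67.5 CPM, for a ratio of 0.566 (0.329 to 0.951). NK-like cells had 11.4 CPM (17 UMIs) and 21.5 CPM (30 UMIs). The order gamma-delta, CD8, regulatory T and NK was the same in both libraries, and neighbours in it had intervals of their levels that did not overlap. Those intervals treat the UMIs of 1 cell as independent, and 1 gamma-delta T-like cell of control held 11 UMIs. Thinned shares of gamma-delta T-like cells, 20.8% (7.13 to 42.2) and 23.1% (15.4 to 32.4), had intervals that overlapped those of CD8 T-like cells above. Without thinning, 50% of gamma-delta T-like cells held a UMI in each library, against 63.6% and 49.5% of CD8 T-like cells. Subcluster 0 gave 32 of 247 control and 383 of 969 knockdown CD8 T-like cells, and with T-like subclusters at the same weight the class ratio was 0.883.

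Cxcr3 was sparse everywhere, and its level in T-like cells was lower in the knockdown library. It had 58 UMIs in control and 67 UMIs in knockdown T-like cells, which is 37.9 and 21.6 CPM, for a ratio of 0.571 (0.396 to 0.826). All 5 genes of the axis were tested in T-like cells, and Cxcr3 was the 1 that was lower by at least 1.5-fold with an interval that leaves out 1, as were 3.18% of all genes tested. In NK-like cells, where 3.23% of genes were lower, it had 18 and 8 UMIs, 12.03 and 5.72 CPM, with an interval that holds 1. Thinned to 500 UMIs, 13 of 413 control T-like cells (3.15%, 1.69 to 5.32) and 14 of 1295 knockdown ones (1.08%, 0.592 to 1.81) held a UMI, and unthinned 11.1% and 4.48%. The ratio was below 1 under each of the 12 alternatives, from 0.319 to 0.696. The value of 0.696 came with T-like subclusters at the same weight in both libraries and is less than a 1.5-fold difference. By depth the ratio in T-like cells was 0.474 (0.225 to 1.09) at 500 to 2000 UMIs and 0.336 (0.202 to 0.555) at 2000 to 5000. At 5000 to 10000 UMIs it was 0.740 (0.217 to 2.33), so the interval left out 1 in the middle bin only. Regulatory T-like cells, which had more Cxcr3 than the CD8 T-like cells, made up 142 of 413 control and 222 of 1295 knockdown T-like cells. Free RNA would give 0.0652 and 0.0722 CPM of Cxcr3 in T-like cells.

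By subset, Cxcr3 was lower in the knockdown CD8 T-like cells, while in regulatory T-like cells the interval of its ratio held 1. CD8 T-like cells had 34 and 35 UMIs, 30.6 and 13.5 CPM, for a ratio of 0.441 (0.267 to 0.729). The highest level was in CD8 subcluster 10, led by Gzma and Gzmk, with 195 CPM (16 UMIs in 29 cells) in control and 55.5 CPM (10 UMIs in 86 cells) in knockdown. In control, that subcluster thus gave 16 of the 34 UMIs of the CD8 T-like cells. Its ratio was 0.284 (0.115 to 0.666), while the intervals in CD8 subclusters 0, 5, 6 and 9, with few UMIs each, all held 1. Regulatory T-like cells had 62.4 and 73.1 CPM, for a ratio of 1.17 (0.643 to 2.15), from 23 and 26 UMIs, and the ratio was below 1 under 2 of 10 alternatives, down to 0.480. The difference between the subsets was not tested. Subcluster 3 of the T and NK cells, with Satb1 and Sidt1 among its leading genes, had shallow cells and none of the fixed T markers among its 10 leading genes, so it has no name here. It had 68.0 and 41.2 CPM of Cxcr3 from 17 and 17 UMIs, and counting it as T, an alternative chosen after seeing the data, gave a class ratio of 0.568. The receptors were counted in the same cell in 16 of 247 control and 14 of 969 knockdown CD8 T-like cells without thinning. Cxcr6 was found in 64.0% and 45.2% of the CD8 T-like cells with a Cxcr3 UMI and in 63.5% and 49.7% of those without, shares that lay close to each other within a library.

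In the macrophage/monocyte-like and tumour-like cells the receptors had levels far below those in T-like cells, though mostly above the free RNA estimate. Macrophage/monocyte-like cells had 61 and 40 UMIs of Cxcr3, 1.96 and 1.91 CPM, which is 36.5% and 25.8% of all its UMIs, over 4719 and 4964 cells. Free RNA would give 0.0767 and 0.0865 CPM of Cxcr3 there, an estimate that rests on 2 and 1 UMIs in the empty droplets. The 12 T cell markers summed to 14.8 and 29.2 CPM in these cells, against 5988 and 5925 CPM in T-like cells, and their part in this Cxcr3 level was not tested. Cxcr6 in macrophage/monocyte-like cells was 0.801 and 1.05 CPM, against 0.307 and 2.25 CPM from free RNA, so it lay above the estimate in control and below it in knockdown. Tumour-like cells had 51 and 115 Cxcr6 UMIs, 0.489 and 1.12 CPM, where free RNA would give 0.0926 and 0.546 CPM. Their 4 and 20 Cxcr3 UMIs gave 0.0384 and 0.196 CPM, against 0.0232 and 0.0210 CPM from free RNA. The 23 cDC1-like cells of control, the dendritic cells that present antigen to CD8 T cells, held 5 Cxcr3 UMIs, or 29.5 CPM (9.59 to 68.9), a level close to that of control CD8 T-like cells. The 7 cDC1-like cells of knockdown held 0, which allows up to 147 CPM.

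Genes of the routes that induce the ligands were counted in the same way, from lists chosen by function with earlier results of these data known. Of 20 tested genes of the interferon gamma route, 0 differed by at least 1.5-fold in macrophage/monocyte-like cells, with a median log2 ratio of 0.19 against 0.03 over all genes tested. Over all genes tested in this class only 1.31% were higher and 0.335% lower, so nothing is read from the counts of 0 here. Gbp2, an interferon-induced GTPase, had 435.5 and 598 CPM there, a ratio of 1.37 (1.34 to 1.41), and Ifngr1, a chain of the receptor, had 105 and 81.9 CPM. The 10 genes of the NF-kappaB and TNF route had a median of 0.31 and 0 past the threshold, with Tnfaip3, an inhibitor of the route, at 69.6 and 104 CPM. The 12 genes of the type I interferon and sensing route had a median of 0.0075 and 0 past the threshold, with Irf7 at 200.1 and 159.5 CPM.

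In tumour-like cells a few genes of these lists passed the threshold, beside 2.6% higher and 2.28% lower over all genes tested in this class. Of 16 tested interferon gamma genes 0 passed the threshold, with a median log2 ratio of 0.27 against 0.04 over all genes, and Gbp2 had 432 and 516 CPM. In the type I list, 1 of 8 was lower: Irf7, the interferon-induced transcription factor, with 34.5 and 17.4 CPM, for a ratio of 0.505 (0.477 to 0.535). Ifnb1, which encodes interferon beta, had 47 UMIs in control and 3 UMIs in knockdown, a ratio of 0.065 (0.013 to 0.202) at a level too low for the count. In the NF-kappaB and TNF list, 2 of 8 were higher: Nfkbia at 132 and 222 CPM and Tnfaip3 at 14.6 and 29.5 CPM, both inhibitors that the route induces. Tnfaip3 was tested only through its knockdown level, and Irf7 only through its control level. Ifng itself had 39 and 264 UMIs in tumour-like cells, 0.374 and 2.58 CPM, beside 12 T cell markers that summed to 5.96 and 14.4 CPM there.

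Of the partners of the axis, 0 of 8 tested genes passed the threshold in macrophage/monocyte-like cells and 1 of 7 in tumour-like cells, the interleukin 15 receptor chain Il15ra, at 33.4 and 53.9 CPM. The shares over all genes tested were 1.31% higher and 0.335% lower in the first class and 2.6% and 2.28% in the second. Adam17 had 76.8 and 90.0 CPM in tumour-like cells. In T-like cells, 0 of 7 partners passed, and Gnai2, an inhibitory G protein through which chemokine receptors signal, had 405 and 399.8 CPM. Among other homing receptors in T-like cells, the chemokine receptor Cx3cr1 had 58.1 and 107 CPM. Ccr8, a receptor of tumour regulatory T cells, had 36 and 13 UMIs, a ratio of 0.178 (0.0868 to 0.344) at a level too low for the count. Of 9 genes of lymphocyte state, 1 was lower, the granzyme gene Gzmb, at 1671 and 1003 CPM, for a ratio of 0.6004 (0.570 to 0.633), while Ifng, the inducer of Cxcl9 and Cxcl10, had 641 and 551 CPM. In T-like cells the interferon gamma list had 1 of 18 genes higher, Gbp2, and 1 lower, the inhibitor Socs1, beside 4.98% and 3.18% over all genes tested.

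In NK-like cells 5 of 18 interferon gamma genes were higher and 0 lower, beside 6.93% higher and 3.23% lower over all genes tested in this class, with a median log2 ratio of 0.53 against 0.06 over all genes. Among them were Gbp2 at 30.1 and 127 CPM, Iigp1 at 13.4 and 60.1 CPM and Ifng at 40.1 and 65.1 CPM. Gbp3, also among them, had 18.05 and 37.91 CPM. Iigp1 and Gbp3 were tested only through their knockdown levels. In the type I list 3 of 11 were higher and in the NF-kappaB and TNF list 3 of 7, with 0 lower in either. Of 6 homing receptors 1 was higher, Cxcr4, at 22.1 and 76.5 CPM. Of 10 lymphocyte state genes 2 were higher, Pdcd1, which was also tested only through its knockdown level of 39.3 CPM, and Ifng, and Gzmb was lower at 1994 and 1165 CPM. The 18 macrophage/monocyte markers summed to 1675 CPM in control and 2172 CPM in knockdown NK-like cells, and free RNA was estimated at 4.93% and 14.6% of their UMIs; its part in these differences was not tested.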

How the data were processed

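Each of the 2 groups has 1 droplet library of 3′ ends, for which the protocols in the labels state that 6000 cells were loaded to recover 3000. The deposited matrices are the authors' UMI counts before cell calling, from Cell Ranger 4 per the file headers, with a genome build not given in the sources used here. Members and gene lists were chosen with earlier results of these data known.

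A barcode counted as a cell if it had 500 UMIs and 250 genes or more, no more than 20% mitochondrial UMIs and, below 3000 UMIs, a profile unlike empty droplets (barcodes of at most 100 UMIs; 1000 Dirichlet-multinomial draws; false discovery rate 0.01). Of 177399315 control and 174190399 knockdown UMIs, 81.5% and 75.6% lay in kept cells. Scrublet removed 462 and 843 doublets (4.01% and 5.10%). Both libraries hold more cells than were loaded, and 810044 barcodes were listed in both. Cells were scaled to 10000 UMIs, logged and clustered (2000 variable genes, 30 components, 15 neighbours, Leiden resolution 1; scanpy 1.11.5, leidenalg 0.10.2). Classes needed at least 3 fixed markers at 20 CPM and 25% of the highest cluster, and tumour clusters Xist below 20 CPM and 3 tumour markers at 10 CPM and 3 times the median of clusters with more Xist. Naming thresholds were set after seeing the data. A cluster of shallow cells with none of its markers among its 10 leading genes stayed unnamed.

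UMIs were summed per class and library as CPM. Levels carry exact Poisson, ratios exact conditional binomial and shares Clopper-Pearson 95% intervals. Free RNA was estimated from genes of other cell types and the empty droplets. A gene was tested against the 1.5-fold threshold with at least 50 UMIs over both libraries and 20 CPM in 1. Genes of a list were named by a rule: the 2 with the highest mean CPM, the highest and the lowest ratio among those with at least 20 UMIs, with those past the threshold added after seeing them, and not all are printed. Some genes of these lists are counted in them but are not reported here by name. The interval code was tested on simulated data.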

Additional observations from a re-analysis of the deposited data

How the results depend on the processing

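The Cxcl9 ratio of knockdown to control in macrophage/monocyte-like cells was 1.68 and lay between 1.59 and 1.83 under 11 alternatives. In tumour-like cells the Cxcl9 ratio was 0.487 and lay between 0.420 and 0.863. The Cxcl10 ratio lay between 1.104 and 1.19 in macrophage/monocyte-like cells. In tumour-like cells the Cxcl10 ratio changed direction, at 0.960 with each cell at equal weight and 0.987 with cells thinned to 500 UMIs.

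With clusters at the same weight the ratios were 1.587 (Cxcl9), 1.104 (Cxcl10) and 1.019 (Cxcl16) in macrophage/monocyte-like cells, 0.863 (Cxcl9) and 1.323 (Cxcl10) in tumour-like cells, and 0.883 (Cxcr6) and 0.696 (Cxcr3) in T-like cells, so the differences of tumour-like Cxcl9 and of Cxcr3 were then less than 1.5-fold. With each cell at equal weight they were 1.649 (Cxcl9) and 0.930 (Cxcl16) in macrophage/monocyte-like and 0.593 (Cxcl9) in tumour-like cells. After thinning they were 1.651 (Cxcl9), 1.188 (Cxcl10) and 0.9025 (Cxcl16) in macrophage/monocyte-like, 0.605 (Cxcl9) in tumour-like and 0.319 (Cxcr3) in T-like cells. With estimated free RNA subtracted they were 1.826 (Cxcl9), 1.180 (Cxcl10) and 1.073 (Cxcl16) in macrophage/monocyte-like and 0.420 (Cxcl9) in tumour-like cells. With the median ratio over genes set to 1 they were 1.648 (Cxcl9) in macrophage/monocyte-like, and 0.475 (Cxcl9) and 1.016 (Cxcl10) in tumour-like cells. With at least 2000 UMIs per cell the macrophage/monocyte-like Cxcl9 ratio was 1.706, and with doublets kept the tumour-like one was 0.468. The cause of these shifts was not tested. Clustering without the 5 genes left the 7 main ratios within their counting intervals. Of all alternative values of these 7 ratios, 54 lay within the counting interval of the reported ratio and 23 outside it. The remaining 2, both of tumour-like Cxcl10, changed direction. Of the values in smaller classes and subsets, 200 lay within the counting interval of the reported ratio and 34 outside it. Another 3 changed direction where that interval leaves out 1: dendritic-like Cxcl9 with doublets kept (0.777), neutrophil-like Cxcl10 at 2000 UMIs or more (0.923) and NK-like Cxcr6 after thinning (0.953). Where the interval holds 1, no direction is claimed, and for 11 of 13 such ratios in smaller classes and subsets some alternative lay on the other side of 1, among them Cxcr3 in regulatory T-like (down to 0.480) and gamma-delta T-like cells (2.05, down to 0.231).

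No paired analysis was possible because each group holds 1 library. The spread between tumours is unknown, and Cxcr3, with 167 and 155 UMIs in all kept cells, is limited by depth.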

Other observations

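Values of the 5 genes across cell classes were set beside those of 7501 other genes, over the 18 sums of 9 classes in 2 libraries, as Pearson correlations of log2(CPM + 1). The points share libraries, depth and free RNA, and the correlations are descriptions. Cxcr6 was most like Cd3e (r = 0.973), a chain of the T cell receptor complex, followed by the checkpoint receptor Ctla4 (0.964) and Ifng (0.946), with Cd3g and Cd28 next. Cxcr3 was most like Il2ra (0.916), the alpha chain of the interleukin 2 receptor, with Zc3h12d, Rasgrp1, Scml4 and Oprm1 next. Cxcl16 was most like Pld4 (0.968) and Aif1 (0.956), with Pltp, Rp2 and Pid1 next, of which Aif1 is a macrophage marker. Cxcl9 was most like Spred1 (0.939), Sash1, Map4k3, Gab1 and Nectin2. Cxcl10 was most like Parp12 (0.922), with Wdfy3, Arl8a, Gbp2 (0.882) and Myof next, of which Parp12 and Gbp2 are interferon-induced.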
